A study of Mus musculus with 2 samples.

Results

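The 50 protein-coding genes whose names begin with Psma to Psmg followed by a number, out of 43346 annotated mouse genes in the deposited tables, were described in embryonic forebrain. The rule uses the gene name and the GENCODE M21 gene type and no measured value, and its members cover the subunits of the proteasome, its activators, an inhibitor and its assembly chaperones. Psmc3ip matches the name pattern but encodes a meiotic recombination factor, so it was counted as a member and kept out of the subunit groups. The tissue was forebrain of B6NCrl embryos at embryonic day 11.5, healthy and without treatment or engineered allele per the labels. The 2 total RNA-seq libraries, replicates 1 and 2, came from pools of 109 and 88 embryos of both sexes, with 10 ng of RNA above 200 nucleotides as input. With a single group, the data give levels and the difference between the libraries.

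The proteasome is the main protease for proteins tagged with ubiquitin. Its core particle is a barrel of outer alpha rings, which gate the entrance, and inner beta rings, which hold the active sites of beta1, beta2 and beta5. A regulatory particle caps the core. Its base unfolds substrates with a ring of ATPases, and its lid removes the ubiquitin chain. In immune cells and under interferon the active subunits can be exchanged for the immunoproteasome subunits Psmb8, Psmb9 and Psmb10, which favour peptides for presentation on MHC class I. When proteasome activity falls short, the transcription factor NRF1, encoded by Nfe2l1, is known to raise subunit genes through antioxidant response elements.

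Promoter windows of the subunit genes, from 250 bases before to 50 bases after a transcription start (RefSeq, GRCm38.p6), were searched for the core of that element, TGACNNNGC, on both strands. Windows were found for 42 of the 50 members, 45 windows in all, and not for Psma8, Psmb1, Psmb2, Psmb7, Psmc3, Psmd3, Psmd7 and Psmg2. The letters were present in 6 of them (13.3%), against 13.1% of all 20150 windows of protein-coding genes, a share near that of the background. The following stretches are shown because they are the matches that lie before the start and outside any annotated exon, and 2 of them belong to catalytic subunits. Capitals mark the matched letters, which in Psmc6 and Psmd12 read as the reverse complement. Each stretch is written 5′ to 3′ on the strand of the gene.
Psmb5: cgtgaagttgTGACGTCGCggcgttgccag
Psmb6: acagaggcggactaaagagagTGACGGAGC
Psmc6: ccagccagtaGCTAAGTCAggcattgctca
Psmd9: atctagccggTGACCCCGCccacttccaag
Psmd12: tctGCTGTGTCAcatttgcccccctcagac

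The Psmb5 stretch lies at chr14:54618023-54618052 on the minus strand, with the match starting 47 bases before the start. On the plus strand are the Psmb6 stretch at chr11:70525327-70525356, 9 bases before, and the Psmc6 stretch at chr14:45329587-45329616, 227 bases before. The Psmd9 match starts 31 bases before its start at chr5:123228149-123228178, and the Psmd12 match 247 bases before at chr11:107479278-107479307, both also on the plus strand. The Psmd9 start is internal to the M21 gene, which runs from 123169413 to 123250131, so its stretch lies within the annotated gene and outside its exons. The 6th match, in Psme4, lies within an annotated exon. The ETS letters CCGGAAG were present in 16 of 45 member windows (35.6%), against 11.9% of all windows. The core of the interferon-stimulated response element, GAAA and GAAA with 2 bases between, was present in 5 member windows (11.1%), against 3.42% of all, and these belonged to Psmb3, Psmd4, Psmd9, Psme1 and Psmg4. The windows of Psmb8, Psmb9 and Psmb10 did not hold those letters. CCAAT was found in 33.3% of member windows and 37.8% of all, GGGCGG in 53.3% and 47.8%, and TATAAA in 8.89% and 12.1%. GCGCA followed directly by TGCGC, the palindrome of nuclear respiratory factor, which is not the product of Nfe2l1, was found in 4.44% of member windows and 1.38% of all. Both strands were searched for each motif, a window can count under several motifs, and matched letters are not evidence of binding.

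The libraries held 23165260 expected counts in replicate 1 and 33597028 in replicate 2, and spike-in RNA took 13.0% and 12.7% of the TPM. Because each library is a pool of embryos, the SD over libraries does not measure the spread between embryos. With 1 library per pool, differences of pool and of library preparation cannot be told apart in it. Intervals on counts cover counting error only, since reads without molecular identifiers are not independent molecules.

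Levels are given in TPM, the transcript abundance per length, which allows genes to be compared. Of the 50 members, 46 reached 1 TPM in both libraries, against 58.6% of 21474 protein-coding genes. At 50 TPM or more in both libraries were 40 members, against 14.8% of protein-coding genes, and 38 members stood at or above the 90th percentile of protein-coding genes by mean TPM. Together the members held 1.19% ± 0.0257 of the TPM of annotated mouse genes (SD, n = 2). The 31 constitutive subunits of the core, base and lid lay between 169 TPM for Psmd3 and 678 TPM for Psmb6 by mean, and each had at least 3356 expected counts in replicate 1 and 4442 in replicate 2. The 4 members below 1 TPM in at least 1 library were Psmb9, Psme2b, Psma8 and Psmb11.

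**Figure D1:**
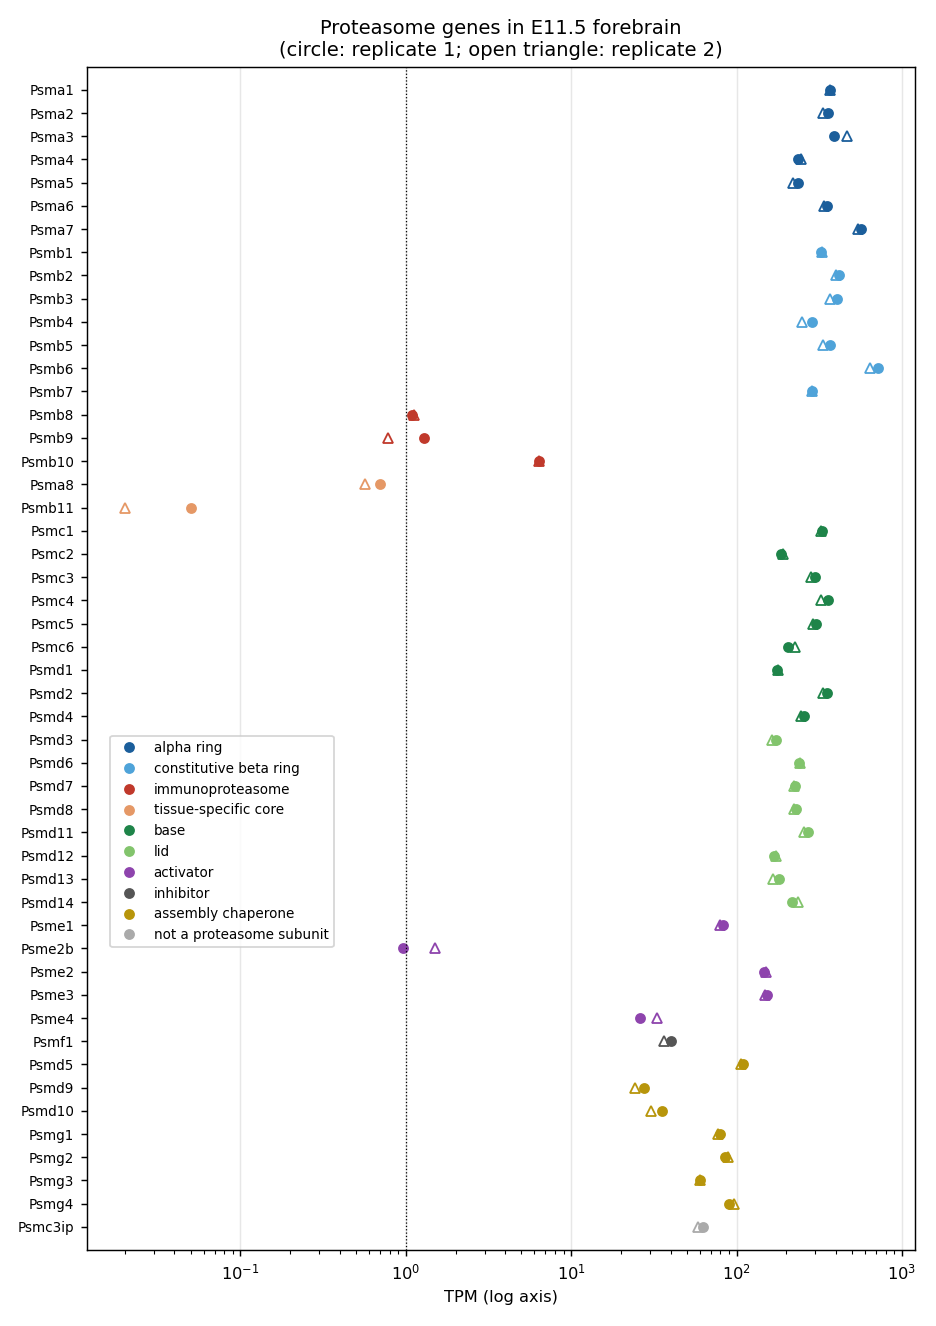
TPM of the 50 members on a log axis, grouped by role, with a filled circle for replicate 1 and an open triangle for replicate 2. The constitutive core, base and lid genes form a band from 164 to 713 TPM, with assembly chaperones below it and the immunoproteasome and tissue-specific genes near or below the dotted line at 1 TPM, except Psmb10.

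The alpha ring genes had a median of 347 ± 15.4 TPM. Psma7, encoding alpha4, was the highest at 568 and 541 TPM in replicates 1 and 2. Psma3, encoding alpha7, followed at 388 and 465 TPM, the widest gap between pools in this ring. The next members lay close together. Psma1 (alpha6) stood at 368 and 367 TPM, Psma2 (alpha2) at 358 and 334 TPM and Psma6 (alpha1) at 354 and 336 TPM. Lower were Psma4, which encodes alpha3, the subunit whose tail is central to the closed gate in yeast, at 237 and 247 TPM, and Psma5 (alpha5) at 235 and 219 TPM. The ring therefore spanned 2.42-fold in replicate 1 and 2.47-fold in replicate 2 from its lowest to its highest gene. By protein-coding transcripts alone the ring spanned 3.53-fold and 3.03-fold. Psma3 was then its lowest gene, at 156 and 173 TPM. The coding share of Psma3 was 40.2% and 37.2% by TPM, and 52.2% and 49.9% by expected counts.

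The constitutive beta ring had a median of 350 ± 23.8 TPM, within the spread of the alpha ring median. Psmb6, encoding the caspase-like active subunit beta1, was the highest member of all at 713 and 642 TPM (ENSMUSG00000018286.6, chromosome 11, 70525367 to 70527858, GRCm38). Psmb5, the chymotrypsin-like beta5 and the main target of proteasome inhibitors used as drugs, stood at 367 and 333 TPM. Psmb7, the trypsin-like beta2, stood at 287 and 284 TPM. Transcripts of the active subunits were thus unequal, with Psmb6 at 1.94 ± 0.0113 times Psmb5 in TPM. Of the beta subunits without an active site, Psmb2 (beta4) stood at 418 and 397 TPM and Psmb3 (beta3) at 403 and 366 TPM. Psmb1 (beta6) at 325 and 329 TPM and Psmb4 (beta7) at 286 and 250 TPM were lower. The summed TPM of the alpha ring was 0.930 ± 0.0481 times that of the beta ring. From its lowest to its highest gene the beta ring spanned 2.49-fold and 2.57-fold. By protein-coding transcripts alone its span was 5.06-fold and 5.01-fold, with Psmb4 lowest at 127 and 115 TPM.

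Base genes had a median of 289 ± 11.8 TPM. Of the ATPases, Psmc4 (Rpt3) stood at 356 and 322 TPM, Psmc1 (Rpt2) at 327 and 325 TPM and Psmc5 (Rpt6) at 304 and 291 TPM. Psmc3 (Rpt5) followed at 297 and 281 TPM. Lowest of the ATPases, which assemble into a single ring, were Psmc6 (Rpt4) at 205 and 225 TPM and Psmc2 (Rpt1) at 186 and 190 TPM. Psmd2, the scaffold Rpn1 to which ubiquitin shuttle proteins dock, stood at 352 and 334 TPM. Psmd4, the ubiquitin receptor Rpn10, stood at 257 and 247 TPM, and the large scaffold Psmd1 (Rpn2) at 175 and 178 TPM.

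Lid genes were lower, with a median of 221 ± 0.488 TPM. From their lowest to their highest gene they spanned 1.60-fold in replicate 1 and 1.57-fold in replicate 2, against 2.04-fold and 1.88-fold for the base. By protein-coding transcripts alone this order turned, with 2.61-fold and 3.10-fold for the lid and 2.00-fold and 1.87-fold for the base. This came from Psmd13, which then stood at 98.96 and 80.3 TPM. Its coding share was 55.0% and 48.0% by TPM, but 76.0% and 69.4% by expected counts. Whether the turn would hold with count shares was not tested. Psmd11 (Rpn6), which clamps the lid to the core, was the highest at 269 and 257 TPM. Psmd14, the deubiquitinase Rpn11, stood at 217 and 236 TPM, and its partner Psmd7 (Rpn8) at 225 and 222 TPM. Psmd6 (Rpn7) at 239 and 242 TPM and Psmd8 (Rpn12) at 228 and 221 TPM lay in the same range. The lowest were Psmd13 (Rpn9) at 180 and 167 TPM, Psmd3 (Rpn3) at 174 and 164 TPM and Psmd12 (Rpn5) at 168 and 172 TPM, 3 genes whose values in the libraries overlapped. The mean TPM of the 14 constitutive core genes was 1.54 ± 0.0182 times that of the 17 base and lid genes, at 1.55 in replicate 1 and 1.52 in replicate 2. At 300 TPM or more by mean were 10 of the 14 core genes and 3 of the 17 base and lid genes.

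The spread over the 31 constitutive subunits was 0.49 ± 0.01 as the SD of log2(TPM + 1) over genes. Over protein-coding genes at 50 TPM or more in both libraries this SD was 1.12 in replicate 1 and 1.13 in replicate 2. The cytosolic chaperonin, which folds actin and tubulin, had 8 subunit genes with an SD of 0.47 and 0.45 in the libraries and a median of 447 ± 11.2 TPM. The COP9 signalosome, whose architecture is related to that of the lid, had 10 genes with an SD of 0.80 and 0.79 and a median of 172 ± 0.640 TPM. Its list holds both Cops7a and Cops7b, and Cops7b was the lowest at 49.1 and 45.1 TPM. The 31 proteasome genes leave out the immunoproteasome and tissue-specific subunits, so the sets are not chosen alike. Prefoldin, a co-chaperone, had 6 genes with an SD of 0.89 and 0.95. These spreads are descriptions over genes and were not tested against each other.

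**Figure D2:**
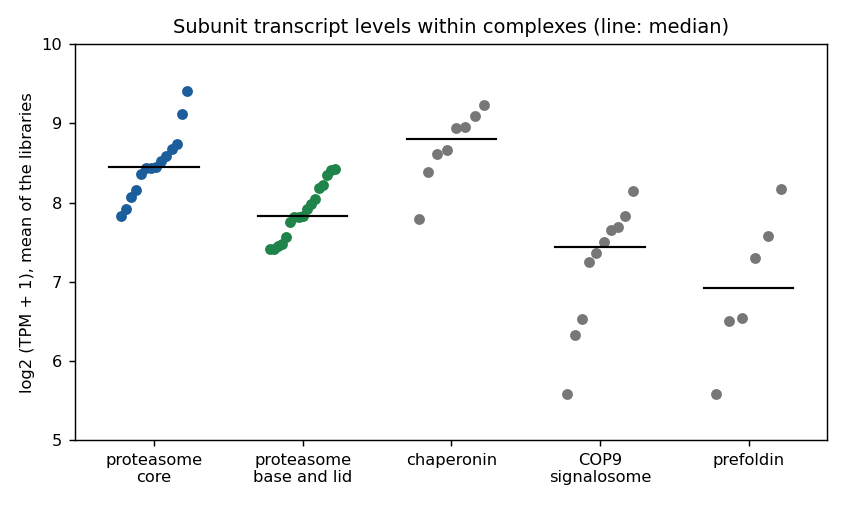
Subunit transcript levels as log2(TPM + 1), averaged over the libraries, with 1 point per gene and a line at the median. At 300 TPM or more by mean are 10 of the 14 core genes and 3 of the 17 base and lid genes, and the 10 COP9 signalosome and 6 prefoldin genes extend lower than these.

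The immunoproteasome subunits were the rare counterparts of the active beta subunits. Psmb10, encoding beta2i, stood at 6.42 and 6.41 TPM from 115 and 166 expected counts. Psmb8, encoding beta5i, stood at 1.09 and 1.13 TPM from 17 and 24 counts. Psmb9, encoding beta1i, had 15.74 and 22.57 expected counts and was listed at 1.29 and 0.78 TPM. Rounded to whole counts these are 0.734 and 0.714 CPM (counts scaled to a common library size) for Psmb8 (exact 95% intervals 0.427 to 1.17 and 0.458 to 1.06). For Psmb9 they are 0.691 and 0.685 CPM (exact 95% intervals 0.395 to 1.12 and 0.434 to 1.03). Both libraries were therefore above the floor of 3 counts for each of these genes. The difference in the TPM of Psmb9 came with a change in the isoform estimate: Psmb9-202, a short transcript, was given 56.9% of the gene TPM in replicate 1 and 0% in replicate 2, and the deposited effective length of the gene was 801 and 1308 bases. The log2 ratio of scaled counts of Psmb9, replicate 1 over replicate 2, was 0.01 (95% counting interval -1.01 to 0.99).

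Set against their constitutive counterparts, Psmb10 reached 0.0225 ± 0.000108 times the TPM of Psmb7, Psmb8 reached 0.00318 ± 0.000298 times that of Psmb5, and Psmb9 reached 0.00151 ± 0.000420 times that of Psmb6. The summed TPM of the 3 immunoproteasome genes was 8.80 and 8.32 TPM, or 0.00652 ± 0.000117 times that of Psmb5, Psmb6 and Psmb7 together. The constitutive sum was thus 155-fold higher in replicate 1 and 151-fold higher in replicate 2. Exons of Psmb8 and Psmb9 overlap Gm20496 and Tap1 on the opposite strand, and since counting by strand is not stated, the few reads of these genes cannot be assigned to them with certainty.

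**Figure D3:**
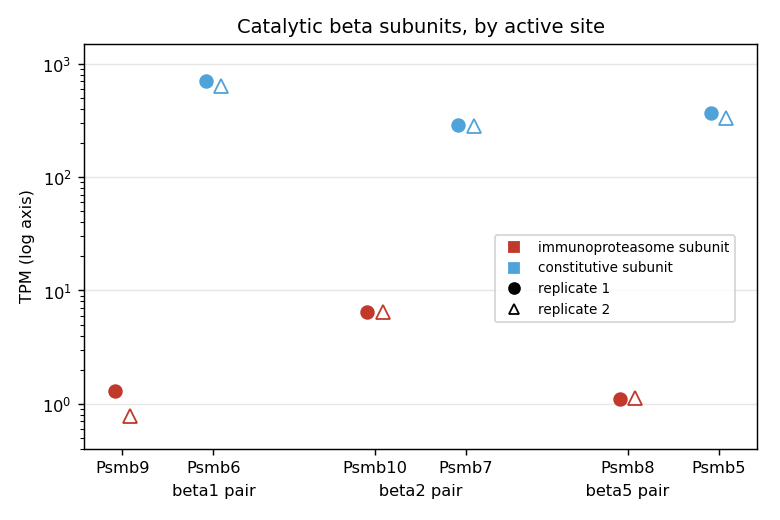
TPM on a log axis of each immunoproteasome subunit (red) beside the constitutive subunit of the same active site (blue), for replicate 1 (circle) and replicate 2 (triangle). The red points lie between 0.78 and 6.42 TPM and the blue points between 284 and 713 TPM, without overlap.

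Psmb8 and Psmb9 lie in the MHC region of chromosome 17 beside the peptide transporter genes. Psmb9 (34181987 to 34187764, minus strand, GRCm38) overlaps Tap1 (34187553 to 34197225, plus strand) by 212 bases. Psmb8 (34197721 to 34201454, plus strand) begins 495 bases past the end of Tap1. Their neighbours were also low, with Tap1 at 1.23 and 1.38 TPM and Tap2 at 0.08 and 0.31 TPM. Of the 15 genes of the antigen presentation list, 11 reached 1 TPM in both libraries. Among these were Calr at 576 and 569 TPM and Pdia3 at 318 and 339 TPM, endoplasmic chaperones that serve many other proteins, then B2m, the light chain of MHC class I, at 77.9 and 79.5 TPM and the heavy chain H2-D1 at 40.7 and 36.4 TPM. The class I regulator Nlrc5 stood at 0.25 and 0.08 TPM, and the interferon factor Irf1 at 3.43 and 3.18 TPM.

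In whole tissue, fewer cells of a type and less RNA per cell cannot be told apart. Macrophage and microglia markers were present in full (10 of 10 at 1 TPM or more), with a summed level of 77.5 and 71.8 TPM. Endothelial markers were also present in full (8 of 8), with 166.6 and 162 TPM. None of 6 lymphocyte markers reached 1 TPM, their sum was 0.36 and 0.78 TPM, and Cd3e and Cd8a had no count. Erythroid genes were 6 of 6 with a sum of 12778 and 13835 TPM. The part of these cells in the immunoproteasome transcripts was not tested. All 7 telencephalon markers were detected, led by Lhx2 at 154 and 139 TPM.

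The tissue-specific core subunits were near the limit of detection. Psma8, the alpha subunit of spermatocytes, stood at 0.70 and 0.57 TPM from 17 and 20 counts, beside Psma7, its somatic counterpart, at 568 and 541 TPM. Psmb11, the beta5t subunit of cortical thymic epithelium, had 3 and 2 counts, at or below the floor of 3, and was listed at 0.05 and 0.02 TPM. Its gene (chromosome 14, 54621433 to 54629556) starts 3410 bases from Psmb5. None of 6 germ cell markers reached 1 TPM, with a sum of 1.03 and 1.00 TPM.

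The activators differed widely in level. Psme3, encoding PA28gamma of the nucleus, stood at 152 and 149 TPM. Psme2 and Psme1, which form the interferon-inducible PA28 of the cytoplasm, stood at 146 and 151 TPM and at 82.3 and 79.2 TPM. Unlike the immunoproteasome genes, these were within the upper 10% of protein-coding genes. Psme3 had 0.657 ± 0.0133 times the summed TPM of Psme1 and Psme2. By protein-coding transcripts alone Psme2 stood lower, at 111 and 104 TPM, against 147 and 144 TPM for Psme3. Psme1 and Psme2 lie 5911 bases apart on chromosome 14, on opposite strands. Psme4, encoding the PA200 activator known for histone degradation, stood at 26.2 and 33.1 TPM. Psme2b, a near-copy of Psme2 on chromosome 11, had 10.87 and 24.58 expected counts, not whole, and 0.96 and 1.51 TPM, so part of its reads was shared with other entries. Its exons overlap 9930111J21Rik1 on the same strand, and which entries share its reads was not tested. The PI31 gene Psmf1, named as an inhibitor from work in vitro, stood at 40.4 and 36.3 TPM.

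Assembly chaperones were below the subunits they serve. The core chaperones Psmg4 (PAC4) at 90.2 and 97.0 TPM, Psmg2 (PAC2) at 85.6 and 88.5 TPM, Psmg1 (PAC1) at 79.6 and 77.6 TPM and Psmg3 (PAC3) at 59.7 and 60.6 TPM act in alpha ring assembly. Among the base chaperones, Psmd5 (S5b) stood at 110 and 107 TPM, Psmd10, also known as the oncoprotein gankyrin, at 35.2 and 30.4 TPM, and Psmd9 (p27) at 27.6 and 24.3 TPM. By the TPM of all transcripts, all 7 genes lay below the lowest of the 31 constitutive subunits in both libraries. By protein-coding transcripts alone, Psmd5 lay above Psmd13 in both libraries, and Psmg2 and Psmg4 did so in replicate 2. Pomp, the chaperone that completes beta ring assembly and is itself degraded by the finished core, was an exception outside the Psm names at 302 and 312 TPM.

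The rest of the pathway was measured from fixed lists. All 9 matched partners outside the Psm names reached 1 TPM. Besides Pomp, the highest were Sem1, the small lid subunit, at 189 and 206 TPM, Adrm1, the ubiquitin receptor Rpn13, at 158 and 164 TPM, and Usp14, a deubiquitinase of the proteasome, at 128 and 136 TPM. All 15 matched ubiquitin and shuttle genes were detected, led by the polyubiquitin gene Ubb at 2713 and 2553 TPM. Rps27a, which encodes ubiquitin fused to a ribosomal protein, stood at 705 and 736 TPM. Of 15 transcription factor genes of the pathway 13 were detected. Among these were the NF-Y genes Nfyc at 106 and 97.9 TPM and Nfyb at 64.1 and 61.1 TPM, Nfe2l1 at 30.6 and 33.0 TPM and Stat3 at 20.9 and 22.1 TPM, close to Nfe2l2, which encodes NRF2, at 21.3 and 21.2 TPM. Ddi2, the protease that activates NRF1, stood at 18.8 and 17.3 TPM.

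Transcript tables showed how much of each gene's TPM came from transcripts annotated as protein-coding. The median share over the 46 detected members was 97.5% ± 0.660, and 32 of them had 95% or more in both libraries. Summed over all members, 91.4% ± 0.790 of TPM was in protein-coding transcripts, 6.10% ± 0.151 in retained-intron transcripts and 1.66% ± 0.529 in transcripts marked for nonsense-mediated decay. The share was under 80% in both libraries for Psma3, Psmb4, Psmc3ip, Psmd13 and Psme2. Weighed by expected counts in place of TPM, protein-coding transcripts held 95% and 94.3% of the members' reads. Transcript types were taken from GENCODE M21, while the abundances are the authors' deposited estimates.

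In Psmb4, the retained-intron transcript Psmb4-202 held 54.4% and 53.1% of the gene TPM, and the coding Psmb4-201 held 44.3% and 46.1%. By expected counts, coding transcripts held 60.5% and 62.2% of Psmb4, 52.2% and 49.9% of Psma3 and 22.8% and 24.9% of Psmc3ip, so the order of the types in Psmb4 turned. By coding transcripts alone Psmb4 averaged 121 TPM, against 268 TPM for the gene, and Psma3 averaged 164 TPM, against 426 TPM. In Psma3 the retained-intron transcript Psma3-203 held 38.0% and 30.2% of TPM, and the coding Psma3-204 held 25.8% and 24.6%. Psma3-201, marked for nonsense-mediated decay, held 15.4% and 21.99%, and the longer coding Psma3-202 held 14.4% and 12.6%. By expected counts Psma3-202 was the highest at 2351 and 3557, against 2094 and 2875 for Psma3-203. Psmd13 had 51.5% ± 4.93 of TPM in coding transcripts, and 76.0% and 69.4% of expected counts. In Psmc3ip the retained-intron transcript Psmc3ip-202 held 67.3% and 65.2%, so that coding transcripts averaged 11.6 TPM out of 60.6 TPM. Several genes had a pair of coding transcripts at comparable levels. In Psmd4, Psmd4-202 held 48.4% and 49.3% and Psmd4-201 held 43.2% and 43.6%. Psmg3-201 held 46.5% and 51.1% of Psmg3, and Psmg3-202 held 46.8% and 41.98%.

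**Figure D4:**
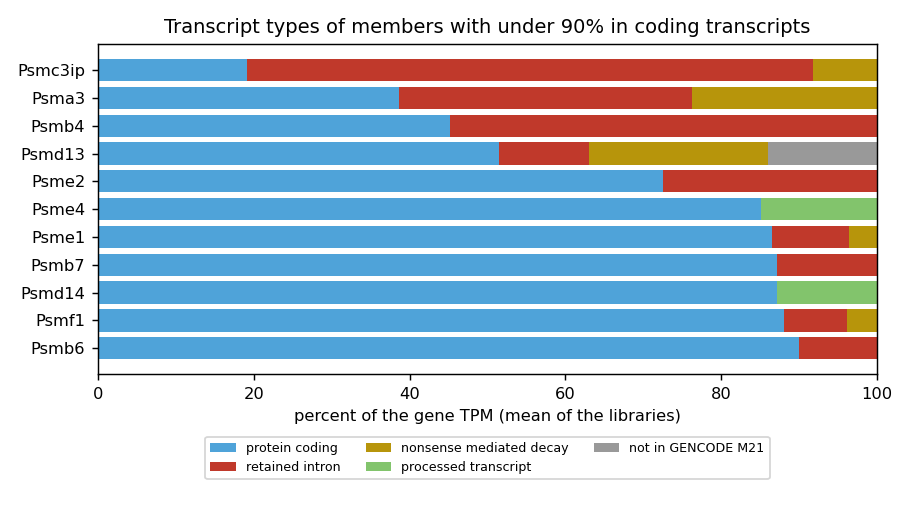
Share of the gene TPM by transcript type, averaged over the libraries, for the 11 detected members with under 90% in protein-coding transcripts. By TPM, coding transcripts hold less than the other types together in Psmc3ip, Psma3 and Psmb4, while by expected counts they hold 60.5% and 62.2% of Psmb4.

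The libraries of the pools were compared for these genes. A log2 ratio of scaled counts past 0.32 in either direction was counted as different. Of all 18297 genes with 10 or more counts summed, 25.9% passed, and of the protein-coding ones 2792 of 14966. Both sets hold genes of all levels, while 40 members were at 50 TPM or more. Of 49 members with 10 or more counts summed, 1 passed. That member was Psme2b, with a log2 ratio of -0.64, replicate 1 over replicate 2 (95% counting interval -1.83 to 0.42), which includes no difference. Among the 40 members at 50 TPM or more none passed, against 0.471% of 3184 protein-coding genes at that level. At that level a share of 0 is near the background. The ratios of the 49 members had a median of 0.04, and 34 were higher in replicate 1 and 15 in replicate 2. Protein-coding genes with 10 or more counts had a median of 0.00, with 7579 higher in replicate 1 and 7387 in replicate 2. At 50 TPM or more, 28 members were higher in replicate 1 and 12 in replicate 2, against 1659 and 1525 protein-coding genes.

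Many ratios lay outside counting error without passing that limit, and the widest of them are given first. Psme4 had a log2 ratio of -0.185 (95% counting interval -0.26 to -0.11) and Psma3 one of -0.18 (-0.22 to -0.13), both lower in replicate 1. In the other direction were Psmd10 at 0.21 (0.06 to 0.35), Psmd9 at 0.18 (0.06 to 0.30), Psmb4 at 0.17 (0.11 to 0.24) and Psmc4 at 0.16 (0.11 to 0.20). Narrower ones included Psmb6 at 0.15 (0.10 to 0.19), Psmb5 at 0.14 (0.08 to 0.19) and Psmc6 at -0.14 (-0.19 to -0.08). The share of all genes with such a ratio is not given here. These intervals hold no spread between pools, and with 1 library on each side the ratios compare the libraries only. In the beta ring 6 of 7 genes were higher in replicate 1, with a median log2 ratio of 0.13, and in the alpha ring 5 of 7 with a median of 0.06. The base had 6 of 9 genes and the lid 5 of 8 higher in replicate 1. Of the core chaperones 1 of 4 was higher in replicate 1, and of the base chaperones 3 of 3, with a median of 0.18.

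**Figure D5:**
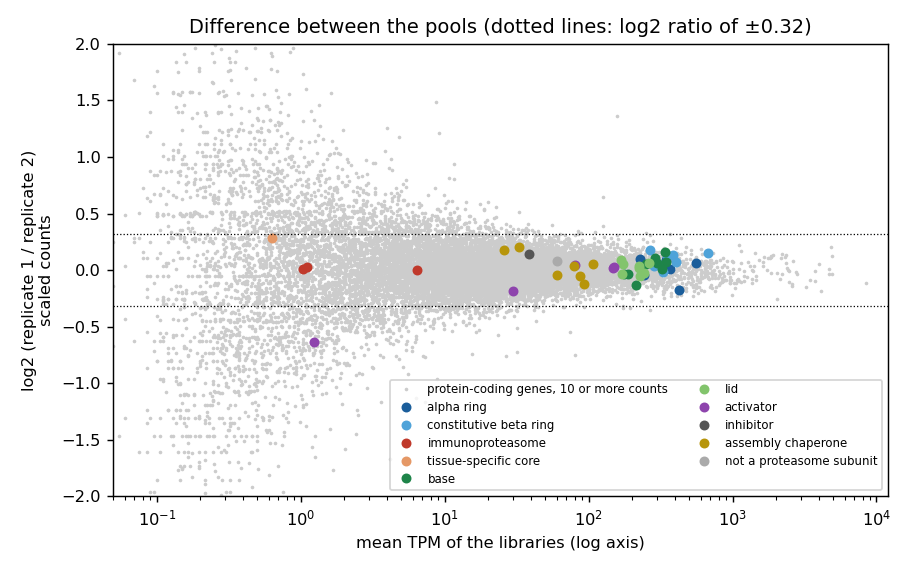
Log2 ratio of scaled counts, replicate 1 over replicate 2, against mean TPM on a log axis, with protein-coding genes in light grey and members coloured by role. All members at 50 TPM or more lie between the dotted lines at a log2 ratio of 0.32 in either direction, the purple point below them at low TPM is Psme2b, and 147 of the grey genes fall outside the axes.

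Some members share reads with other entries. Expected counts were whole, within 0.005, in both libraries for 35 of 50 members, and the other 15 included Psma3, Psma4, Psma5, Psmb3, Psmc1, Psmd2, Psme1 and Psme2. Of 4 pseudogenes that carry a Psm name, Psmb5-ps and Psmb6-ps had no count, Psmb6-ps2 had 2 and 2 counts and Psmb7-ps2 had 4.10 and 12.07 counts. Which entries share reads with which members was not tested. Exons of 12 members overlap a gene on the opposite strand, among them Psmb7 with Nek6, Psmc3 with Slc39a13, Psmd13 with Sirt3 and Psme1 with Emc9, and their values are uncertain to that extent.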

How the data were processed

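Total RNA-seq libraries of mouse forebrain, 1 group of 2, were analysed from the deposited gene and transcript tables. Alignment was to mm10 and its GENCODE M4 transcripts, per the submitters' notes deposited beside the tables. Which aligner and quantifier were used, and whether strand was counted, is not stated there. The deposited expected counts are estimates that divide shared reads, and the deposited TPM are scaled by length and share a fixed total with spike-in and other entries. Credibility bounds of TPM, deposited as a signal column, were not printed. The deposited percent of each gene's TPM per isoform was used as given.

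Names, types and coordinates came from GENCODE M21 (GRCm38, the build of the files), which matched 42462 of 43346 gene identifiers. Transcript types are those of M21. Spike-ins (97 entries) and 26248 numeric identifiers stayed out of library sizes. Annotated genes summed to 23165260 and 33597028 expected counts in replicates 1 and 2. Spike-ins held 13.0% and 12.7% of all TPM.

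With 1 group there was no test between groups and no p-value. The pools were compared by the log2 ratio of replicate 1 over replicate 2 of rounded counts, scaled by TMM in edgeR 4.0.16 (R 4.3.3), with a prior of 0.5 counts, over genes with 10 or more counts summed. A log2 ratio of 0.32 was the limit used. DESeq2 1.42.0 supplied other size factors as a check. The ratio step was tested on simulated data with 200 changed genes. Intervals (95%, exact Clopper-Pearson) and floors of 3 counts cover counting error only. Values are mean ± SD of the 2 libraries, each of which is a pool of embryos.

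Members and gene lists were chosen with earlier results of these data known. All members are named, and of other lists the 4 highest genes and those set beside a member, except a few that are not reported here. Promoter windows were searched for fixed letters with Python 3.11.15.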

Additional observations from a re-analysis of the deposited data

How the results depend on the processing

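Of 66 alternative values, 50 stayed within 1 SD over the libraries, or for a count within 1.5 times, 15 moved past that and 1 reversed. The SD over 2 libraries is itself uncertain, so a small move can pass it. A value from 1 library lies within 1 SD of the mean of the 2 by construction. Leaving out a library therefore could not move a level, ratio, spread or share. Rescaling could not change a ratio of TPM, and the limit of 1 TPM could not change the spread, since all 31 subunits pass it. Such values are part of the 50, which is therefore not a measure of robustness. Rescaling without the spike-in RNA gave median levels of 398 TPM for the alpha ring, 401 TPM for the beta ring, 331 TPM for the base and 254 TPM for the lid, a common factor by construction. With posterior mean TPM, the lid median was 215 TPM and the immunoproteasome ratio 0.00710. With protein-coding transcripts only, an alternative chosen after seeing the data, the lid median was 210 TPM, the core to regulatory particle ratio 1.44, the immunoproteasome ratio 0.00697, the ratio of Psme3 to Psme1 and Psme2 0.820 and the spread over the 31 subunits 0.59. The span of the lid over that of the base then reversed, at 1.48, against 0.810 with all transcripts. The coding shares of Psmd13 and Psme2, which enter these values, were higher by expected counts than by TPM. The protein-coding share was 98.8% by expected counts. The members past a log2 ratio of 0.32 between libraries numbered 3 with deposited TPM and a pseudocount of 1 (Psmb9, Psme2b and Psme4), 2 with no count filter (Psmb11 and Psme2b), 0 with 100 or more counts and 1 with DESeq2 size factors (Psme2b). Apart from the changes of scale and filter, the cause was not tested. Leaving out either library gave 1.52 to 1.55 for the core to regulatory particle ratio and 0.00644 to 0.00661 for the immunoproteasome ratio. The ratio between libraries could not be recomputed with a library left out. No paired analysis was possible because the samples form 1 group. Counts of 2 to 25 for Psmb8, Psmb9, Psma8, Psmb11 and Psme2b limit what can be said of them.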
